A study of Mus musculus with 44 samples.

Results

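The enterocyte is the absorptive cell of the intestinal lining, and its differentiation is commonly read from a small set of genes that build or serve the apical brush border. A set of 9 such genes is described here across the whole series. They were taken by gene name, with earlier results of these data known, as Vil1, Cdhr5, Fabp1, Fabp2, Anpep, Slc5a1, Muc13, Krt20 and Lgals4. Each matched 1 gene identifier, so the set is 9 of 32287 genes with a value, and 9 of 21704 that are protein-coding. All values are in TPM, a read-derived level per transcript length that sums to the same total in every library.

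The study labelled the 2 lineages of mouse embryos with separate colours by aggregating GFP-labelled embryonic stem cells with mCherry-labelled morulae, so that GFP marks cells of embryonic origin and mCherry those of extraembryonic origin. The 44 low-input libraries form 12 groups. At embryonic day 6.5 (E6.5) single embryos gave the epiblast (Epi), the distal extraembryonic endoderm (exEndo1) and the proximal extraembryonic endoderm (exEndo2), with n = 4 each and dissection by hand. At E9.5 EPCAM+ cells were sorted from the yolk sac endoderm (YsEndo, mCherry+) and from midgut and hindgut, either mCherry+ (exMidgut, exHindgut, together exGut) or GFP+ with low mCherry (emMidgut, emHindgut, together emGut), with n = 4 each, and each midgut or hindgut library pooled the tissue of 4 embryos. At E13.5 EPCAM+ cells of single embryos came from small intestine and colon, either GFP+ and wild type (emSI, emColon) or mCherry+ and Trp53 KO (exSI, exColon), with n = 3 each. The mCherry+ cells of E13.5 descend from CD1/G4 morulae edited at Trp53 by zygote electroporation, the E6.5 and E9.5 morulae were CD1/G4 and wild type, and the GFP+ cells are of the stem cell line given as G4 in the labels and F1G4 in the methods. Origin and strain therefore change together in every ex against em comparison, and at E13.5 the Trp53 genotype changes with them, so their parts cannot be told apart. By the paper, the GFP+ cells are male while the mCherry+ cells can be of either sex. Sex can therefore differ with origin as well, and its part was not tested. Samples of 1 group came from separate embryos or pools, libraries of different groups at a stage (midgut and hindgut, or both origins) may share embryos, and p-values measure only the spread between these samples. The extraction text of Epi names another tissue (EmVE), while Vil1 and Hnf4a, which mark the visceral endoderm, did not exceed 0.46 and 0.032 TPM in the Epi libraries.

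Villin (Vil1) bundles the actin core of the microvillus, and the cadherin-related protein CDHR5 links neighbouring microvilli at their tips. FABP1 and FABP2, the liver and intestinal fatty acid binding proteins, carry fatty acids inside the cell, aminopeptidase N (Anpep) trims peptides at the surface, and SLC5A1 takes up glucose together with sodium. MUC13 is a membrane mucin of the glycocalyx, keratin 20 (Krt20) is an intermediate filament protein of differentiated gut epithelium, and LGALS4 is a galectin that binds glycolipids at the apical side. Several of these genes also serve the visceral and yolk sac endoderm, an absorptive epithelium that feeds the embryo before the gut is formed.

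Promoter sequences are shown for 3 members: Fabp1, whose difference between origins changed sign with stage, Fabp2, its relative with a different tissue map, and Muc13, listed at 0 in every hindgut library. They are the 250 bases before the RefSeq start, all on the plus strand of GRCm38.p6 (the mm10 build), at chr6:71199629-71199878, chr3:122894822-122895071 and chr16:33793787-33794036, the last being the first of 2 starts listed for Muc13. Capitals mark exact matches, on either strand, to TTTATG (recognized by CDX factors), GTTAAT (part of the HNF1 site), CAAAGTC (an HNF4 motif), AGATAA (bound by GATA factors) and TATAAA (a core promoter element).
Fabp1: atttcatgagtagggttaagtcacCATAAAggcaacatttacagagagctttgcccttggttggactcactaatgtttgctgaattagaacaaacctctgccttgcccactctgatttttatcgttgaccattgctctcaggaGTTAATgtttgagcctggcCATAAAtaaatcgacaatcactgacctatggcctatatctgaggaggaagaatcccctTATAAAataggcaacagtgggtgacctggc
Fabp2: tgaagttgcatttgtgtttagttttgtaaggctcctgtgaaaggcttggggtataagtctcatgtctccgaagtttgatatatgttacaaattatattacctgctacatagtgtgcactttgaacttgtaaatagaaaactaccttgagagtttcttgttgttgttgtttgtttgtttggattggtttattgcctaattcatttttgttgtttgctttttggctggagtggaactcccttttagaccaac
Muc13: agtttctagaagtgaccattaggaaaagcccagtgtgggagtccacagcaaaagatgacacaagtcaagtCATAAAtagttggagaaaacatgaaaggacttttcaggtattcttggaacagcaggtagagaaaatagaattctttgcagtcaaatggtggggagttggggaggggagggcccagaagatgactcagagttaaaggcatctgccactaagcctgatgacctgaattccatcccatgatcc
The Fabp1 window held 2 matches to TTTATG, both on the opposite strand, 1 to GTTAAT whose first base is at position -107 from the start, and 1 to TATAAA at position -30. The Muc13 window shown held 1 TTTATG match on the opposite strand, and the Fabp2 window held none of the 5 motifs. The window of the second Muc13 start, not shown, held 1 CAAAGTC match on the opposite strand, at position -184, and 1 GTTAAT match at position -61. Over the 10 member windows, 3 held TTTATG, against 10.8% of all 32851 promoter windows of this length, 2 held GTTAAT, against 6.43%, 1 held CAAAGTC, against 3.84%, 1 held AGATAA, against 9.99%, and 2 held TATAAA, against 12.4%. The matches are a description of these windows.

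The genes lie apart from each other in the genome. In mm10 coordinates, Vil1 (ENSMUSG00000026175) is on chromosome 1 at 74409376 to 74435559, Fabp2 (ENSMUSG00000023057) on chromosome 3 at 122895072 to 122899506, Slc5a1 (ENSMUSG00000011034) on chromosome 5 at 33104219 to 33162870 and Fabp1 (ENSMUSG00000054422) on chromosome 6 at 71199827 to 71205023. Chromosome 7 holds 3 members, Lgals4 (ENSMUSG00000053964) at 28833854 to 28841708, Anpep (ENSMUSG00000039062) at 79821803 to 79861059 and Cdhr5 (ENSMUSG00000025497) at 141269083 to 141276786. Krt20 (ENSMUSG00000035775) is on chromosome 11 at 99428403 to 99438150, and Muc13 (ENSMUSG00000022824) on chromosome 16 at 33794037 to 33819934. Anpep, Cdhr5 and Krt20 are on the minus strand.

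Between 10382 and 13596 genes exceeded 1 TPM per library. Total read counts are not given by these files, and the median coverage of genes over 1 TPM ranged from 16.4 to 57.6. The mCherry transcript ranged from 1731 to 8667 TPM in the 26 libraries of extraembryonic origin and from 0 to 6.61 in the 18 of embryonic origin, and the GFP transcript from 180 to 880 TPM in the latter. Trp53 was at 33.4 to 167 TPM in the 6 Trp53 KO libraries and at 151 to 245 in the 6 wild-type E13.5 libraries, a gene-level value that does not check the edit. The epithelial list (Epcam, Cdh1, keratins and claudins) summed to at least 1742 TPM in every sorted library, while blood and endothelial lists stayed at or below 11.8 and 5.64. The mesenchyme list was at 432, 117 and 1.93 TPM in the 3 emSI libraries against at most 1.25 in exSI, and the enteroendocrine list at 17.0, 232 and 422 TPM against at most 9.20, so the emSI libraries differed among themselves in content.

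**Figure D1:**
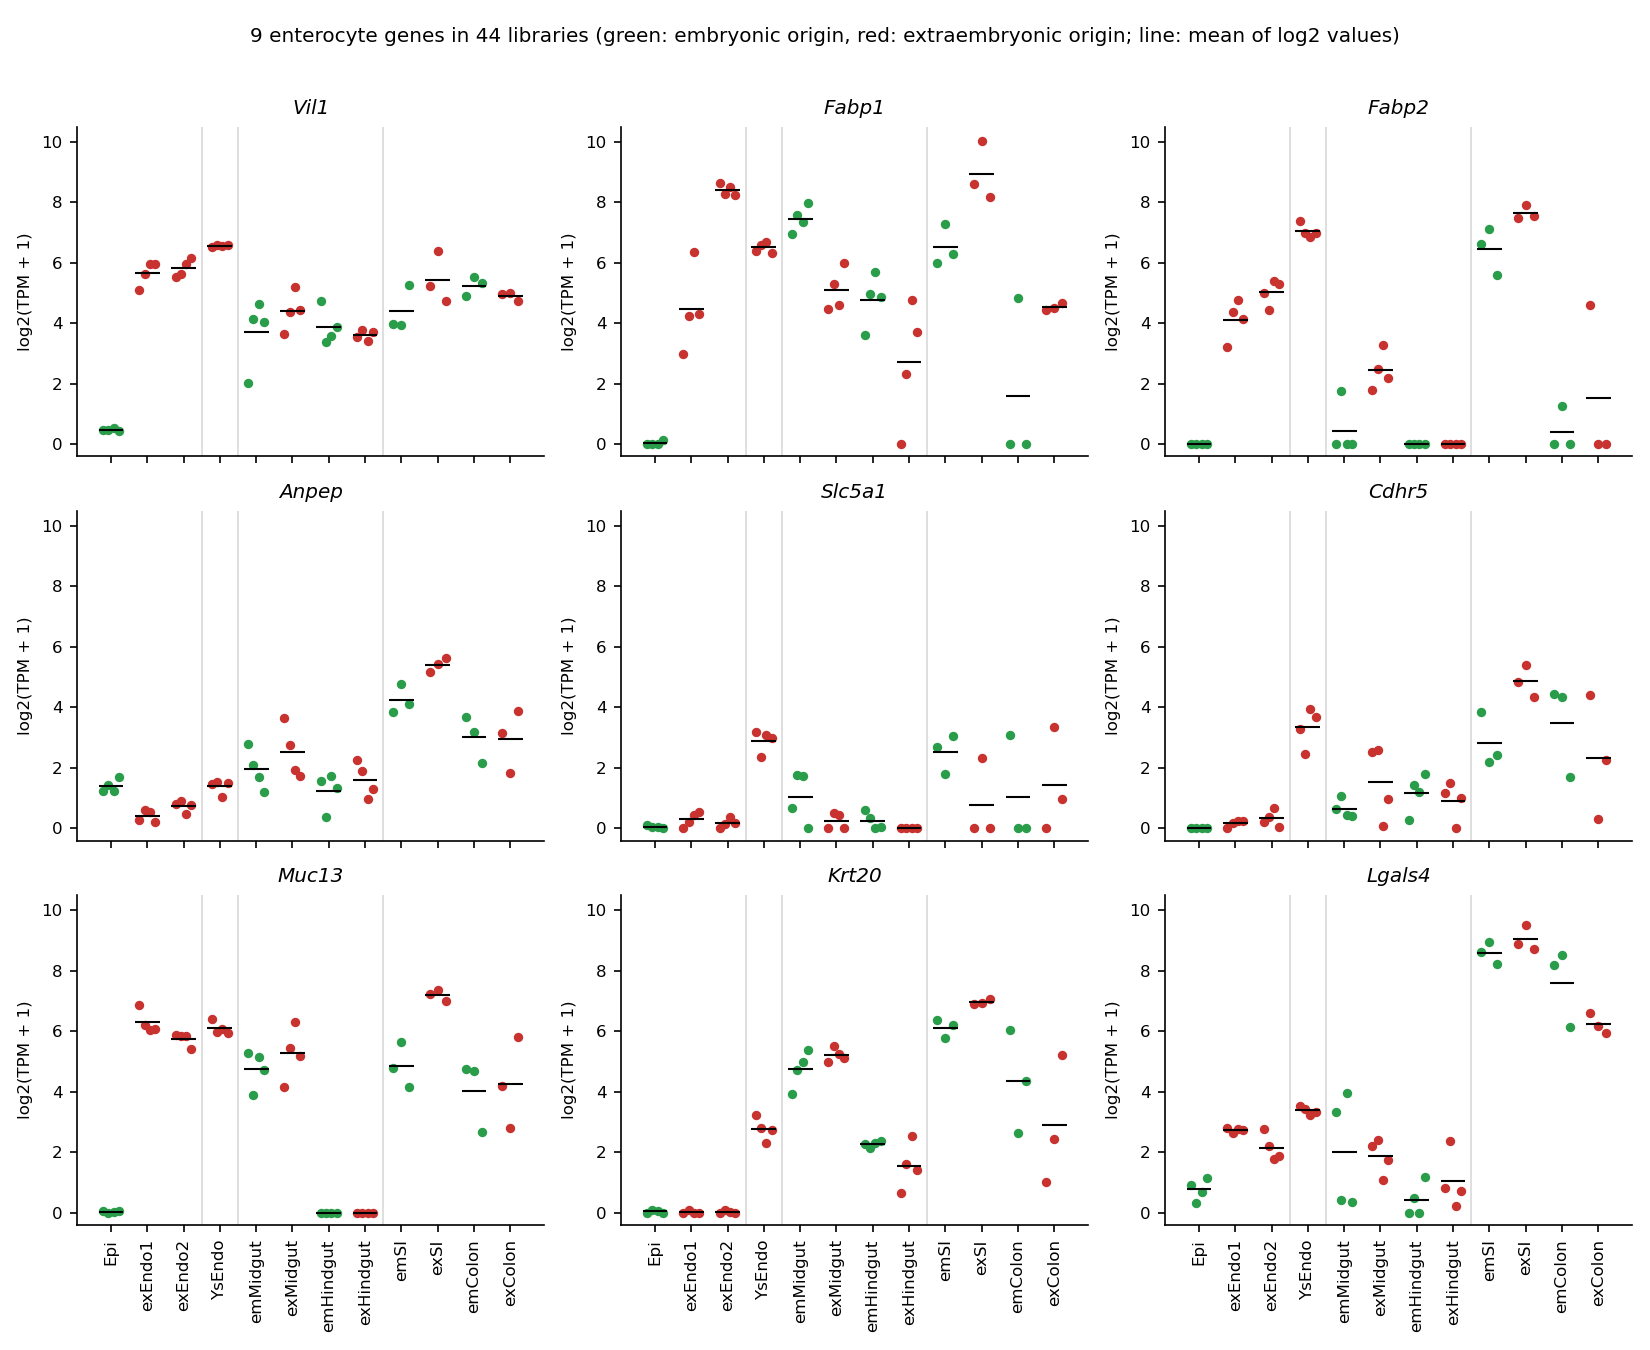
Level of each of the 9 genes, as log2(TPM + 1), in every library of the 12 groups, with the mean of the log2 values as a line, green for embryonic and red for extraembryonic origin. Muc13 is listed at 0 in all 8 hindgut libraries, Lgals4 is between 60.9 and 720 TPM at E13.5 and at most 14.4 before it, and Fabp1 is higher in emMidgut than in exMidgut but lower in emSI than in exSI.

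The members did not move as a block. Their summed level had a mean of 2.92 ± 0.72 TPM (SD, n = 4) in Epi, 186 ± 35.2 in exEndo1, 487 ± 50.1 in exEndo2 and 417 ± 27.6 in YsEndo (n = 4 each). In the E9.5 gut it was 263 ± 57.1 in emMidgut, 153 ± 36.3 in exMidgut, 52.2 ± 11.6 in emHindgut and 28.8 ± 10.2 in exHindgut (n = 4 each). At E13.5 it was 738 ± 182 in emSI, 1698 ± 653 in exSI, 359 ± 192 in emColon and 195 ± 42.0 in exColon (n = 3 each). Every YsEndo and emSI library had all 9 genes above 1 TPM, whereas hindgut libraries had 3 to 6 and Epi libraries 1 or 2. The gene that led the sum changed from tissue to tissue, and in bulk libraries fewer expressing cells and less RNA per cell cannot be told apart.

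**Figure D2:**
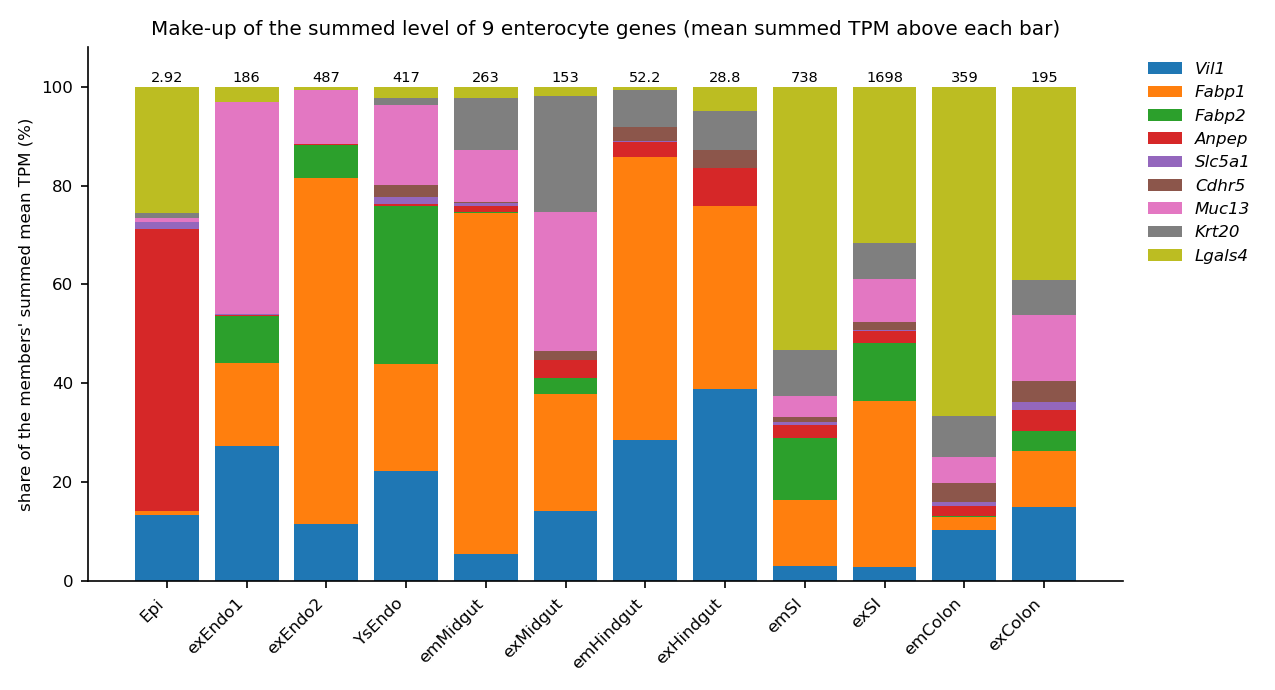
Share of each gene in the members' summed mean TPM (percent of the sum) for the 12 groups, with the mean summed TPM above each bar. Fabp1 made up 69.9% of the sum in exEndo2 and 68.8% in emMidgut, Muc13 42.9% in exEndo1, Fabp2 31.9% in YsEndo and Lgals4 66.7% in emColon.

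Over the 36 pairs of members and all 44 libraries, Pearson's r of log2(TPM + 1) ranged from 0.03, for Vil1 and Anpep, to 0.79, for Anpep with Krt20 and with Lgals4, with a median of 0.39. Within the 16 E9.5 gut libraries r ran from -0.20 to 0.93, for Muc13 and Krt20, with 29 of 36 pairs above 0, and within the 12 E13.5 libraries from -0.29 to 0.94, for Anpep and Muc13, with 28 of 36 above 0. These values describe libraries that share groups and dissections, and carry no test.

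Of the structural genes, Vil1 was at 3.06 TPM or more in every endoderm library. Its mean was highest in YsEndo, at 93.1 ± 2.26 TPM, and its E9.5 and E13.5 gut means lay between 11.2 and 48.2 TPM, with ranges that overlapped from each group to the next in order. Only the bottom and the top of that order were set apart, since Epi did not exceed 0.46 TPM and no other group reached the lowest YsEndo library, at 90.1. Cdhr5 was at most 4.97 TPM in any E9.5 gut library and at most 0.60 in any E6.5 library. Its values were 27.9, 41.2 and 19.2 TPM in exSI, 13.6, 3.56 and 4.44 in emSI, 20.8, 19.1 and 2.24 in emColon, 20.2, 0.24 and 3.77 in exColon, and 4.51 to 14.3 in YsEndo. The emColon libraries thus ran from 2.24 TPM, under the lowest emSI library, to above the highest, and exColon from 0.24.

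The 2 fatty acid binding genes had different maps. Fabp1 was listed at 0 to 0.094 TPM in Epi, at 6.98, 18.1, 80.6 and 18.6 in exEndo1, at 400, 306, 358 and 299 in exEndo2, and at 83.5, 95.1, 102 and 79.8 in YsEndo. It was at 122, 192, 161 and 249 TPM in emMidgut against 21.1, 38.4, 23.2 and 62.2 in exMidgut, and at 11.1, 30.1, 50.4 and 27.9 in emHindgut against 0, 4.01, 26.4 and 12.1 in exHindgut. At E13.5 it was at 62.3, 156 and 77.3 TPM in emSI, 385, 1033 and 289 in exSI, 0, 27.3 and 0 in emColon, and 20.9, 21.7 and 24.4 in exColon. The highest exMidgut library was below the lowest emMidgut library, and the lowest exSI library was above the highest emSI library.

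Fabp2 was listed at 0 in all 4 Epi and all 8 hindgut libraries. It was at 8.19 to 26.0 TPM in exEndo1, 20.5 to 40.9 in exEndo2 and 115 to 164 in YsEndo. In the midgut it was at 0, 2.41, 0 and 0 TPM in emMidgut and 2.51, 4.63, 8.81 and 3.52 in exMidgut, and at E13.5 at 96.8, 138 and 46.8 in emSI, 177, 239 and 187 in exSI, 0, 1.40 and 0 in emColon and 23.1, 0 and 0 in exColon. Fabp1 was therefore present in the emMidgut libraries at 122 TPM or more while Fabp2 was at or near 0 there, and at E13.5 both were high in the small intestine.

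**Figure D3:**
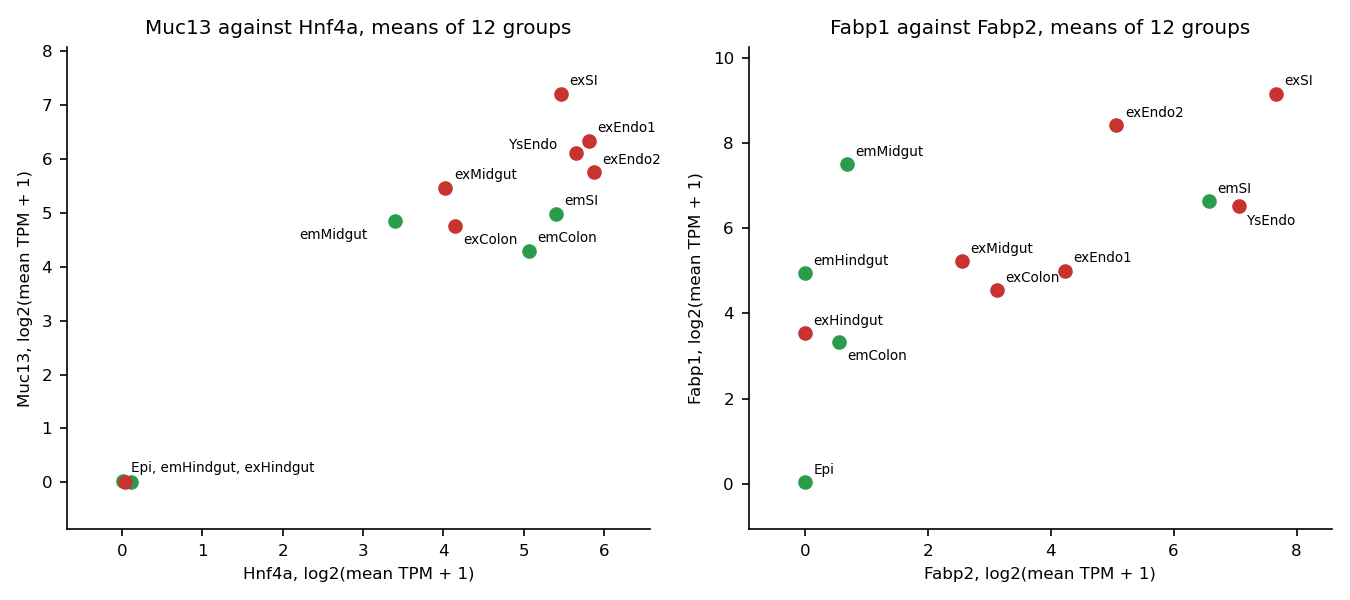
Group means as log2(mean TPM + 1), with Muc13 against Hnf4a on the left and Fabp1 against Fabp2 on the right, for the 12 groups, green for embryonic and red for extraembryonic origin. Epi, emHindgut and exHindgut lie together at the origin of the left plot, and emMidgut stands far above the other groups of like Fabp2 level in the right one.

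Anpep and Slc5a1, the surface peptidase and the glucose carrier, were both low in the E9.5 gut. Anpep was at most 11.4 TPM in any library up to E9.5, at 13.4, 26.3 and 16.5 in emSI, at 35.2, 42.3 and 48.2 in exSI, and at 2.56 to 13.9 in colon. It was also the only member above 1 TPM in every Epi library, at 1.36, 1.70, 1.34 and 2.24. Slc5a1 exceeded 1 TPM in all libraries of only 2 groups, YsEndo at 8.02, 4.15, 7.42 and 6.85 and emSI at 5.44, 2.52 and 7.31, while exSI held 0, 4.00 and 0 TPM and both colon groups ran from 0 to 9.22. Libraries of 1 group thus ran from 0 to several TPM.

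Muc13, Krt20 and Lgals4 differed in when they appeared. Muc13 was high from E6.5 in the extraembryonic endoderm, at 41.8 to 116 TPM, and in YsEndo, at 59.9 to 82.8, and was listed at 0 in all 8 hindgut libraries. It was at 13.8 to 38.0 TPM in emMidgut, 16.6 to 77.8 in exMidgut, 26.3, 48.7 and 16.7 in emSI, 150, 164 and 125 in exSI, and 5.35 to 55.0 in colon. Krt20 was at most 0.075 TPM in any E6.5 library, 14.2 to 44 in midgut, 0.56 to 4.78 in hindgut, 3.94 to 8.27 in YsEndo, 82.0, 54.1 and 72.0 in emSI and 119, 121 and 133 in exSI. Lgals4 was at most 14.4 TPM in every library up to E9.5 and rose at E13.5 to 395, 490 and 293 in emSI, 470, 720 and 419 in exSI, 287, 361 and 69.7 in emColon and 96.1, 71.0 and 60.9 in exColon.

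Differences were tested with limma on log2(TPM + 1) over all genes that passed a filter on low values, and a gene was called at a Benjamini-Hochberg adjusted p under 0.05 and a log2 difference above 1 in size. Differences are log2 values with their standard error (SE), and understate the change of low genes. Each group enters several comparisons, so these share libraries and are not independent of each other.

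The first comparison asked which members mark the visceral endoderm at E6.5. Of 6 members tested, Vil1, Fabp1, Fabp2, Muc13 and Lgals4 were higher in exEndo1 than in Epi, where 33.4% of all genes tested were called and 19.8% were called higher. Vil1 was at 50.9 ± 13.45 against 0.39 ± 0.05 TPM (SD, n = 4 each), a difference of 5.18 (SE 0.21, limma adjusted p = 5.33e-09), and Muc13 at 79.7 ± 24.6 against 0.022 ± 0.020 TPM, a difference of 6.26 (SE 0.20, limma adjusted p = 9.72e-10). Fabp1 differed by 4.44 (SE 0.53, limma adjusted p = 2.45e-05) and Lgals4 by 1.96 (SE 0.19, limma adjusted p = 5.44e-06), and Fabp2, listed at 0 in Epi, had a limma adjusted p of 3.05e-07. Anpep, lower in exEndo1 in all 4 libraries, had a difference of -0.99 (SE 0.17, limma adjusted p = 0.000347), just inside the size threshold, and passed it at -1.05 after median-ratio rescaling of the libraries, at -2.09 with a pseudocount of 0.1, and without Epi replicate 1 or 3 or exEndo1 replicate 2 or 3. Of the transcription factors of the intestine, 12 of 12 tested were higher in exEndo1, led by Hnf4a at 5.78 (SE 0.17, limma adjusted p = 4.37e-10) and Creb3l3 at 5.64 (SE 0.26, limma adjusted p = 1.43e-08), and all 5 of the other brush border enzymes and transporters tested were higher, led by Dpp4, a surface peptidase, at 7.12 (SE 0.17, limma adjusted p = 8.72e-11).

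Within the visceral endoderm, Fabp1 was the 1 member of 5 tested that was called between proximal and distal tissue, where 6.41% of genes were called and 2.45% called higher. It was at 341 ± 47.6 TPM in exEndo2 and 31.1 ± 33.5 in exEndo1 (SD, n = 4 each), a difference of 3.93 (SE 0.52, limma adjusted p = 0.000623), with no overlap between groups. Fabp2 had a difference of 0.90 (SE 0.31, limma adjusted p = 0.0799), Muc13 of -0.55 (SE 0.19, limma adjusted p = 0.0793), Lgals4 of -0.58 (SE 0.23, limma adjusted p = 0.118) and Vil1 of 0.17 (95% interval -0.29 to 0.62). Without exEndo1 replicate 3, or without exEndo2 replicate 2, Fabp2 was called as well, which made 2 members. By limma 4 of the 5 members had an unadjusted p under 0.05. Over the alternatives the lowest limma adjusted p was 0.0421 for Muc13 and 0.0256 for Lgals4, with differences that stayed under the size threshold. In the same libraries the mesenchyme list summed to 45.4 to 89.0 TPM in exEndo2 and 8.71 to 15.8 in exEndo1, with 1 of 2 genes tested called higher. The epithelial list summed to 1048 to 1615 and 1684 to 2250 TPM, with 1 of 6 called lower. The colonocyte list summed to 1965 to 2601 and 3056 to 3689, with 2 of 4 called higher although the sum was lower. In the colon libraries of E13.5 the same list summed to at most 13.9 TPM in emColon and 5.95 in exColon. Their part in the Fabp1 difference was not tested.

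The yolk sac endoderm at E9.5 held most of the set. Against exGut, 7 of 9 members were higher in YsEndo, with 42.4% of genes called and 10.0% called higher. Vil1 was at 93.1 ± 2.26 TPM (SD, n = 4) against 16.6 ± 8.85 (SD, n = 8), a difference of 2.55 (SE 0.29, limma adjusted p = 3.19e-06). Fabp2 was at 133 ± 21.3 against 2.43 ± 3.17 TPM, a difference of 5.83 (SE 0.62, limma adjusted p = 1.68e-06), and Slc5a1 at 6.61 ± 1.71 against 0.096 ± 0.18, a difference of 2.78 (SE 0.26, limma adjusted p = 4.81e-07). Cdhr5 differed by 2.11 (SE 0.50), Lgals4 by 1.93 (SE 0.42), Fabp1 by 2.61 (SE 0.83) and Muc13 by 3.45 (SE 1.24), with limma adjusted p of 0.00207, 0.00109, 0.0139 and 0.0261. The Muc13 difference combines midgut libraries, of which 1 exceeded the lowest YsEndo library, with hindgut libraries at 0, and its call was lost without any 1 YsEndo library, with adjusted p up to 0.0644. The Fabp1 call was lost with a pseudocount of 0.1 (limma adjusted p = 0.051) and the Muc13 call also with no filter on low values (limma adjusted p = 0.0624). Krt20 and Anpep, which did not pass, had differences of -0.61 (SE 0.89) and -0.67 (SE 0.42). Of the other brush border enzymes and transporters, 3 of 11 were higher and 1 lower in YsEndo, led by Slc2a2, a glucose transporter, at 6.15, and of the structural list 4 of 10 were higher, led by Cdhr2, a partner of CDHR5 at the microvillus tip, at 5.53. Among transcription factors 3 of 14 were higher and 5 lower, where 4138 of all 12801 genes tested were called lower. Creb3l3 differed by 6.45 and Cdx2, the intestinal homeobox factor, by -3.42.

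From E6.5 proximal endoderm to YsEndo, 5 of 9 members rose and 1 fell, where 29.6% of genes were called, 7.95% higher and 21.6% lower. Slc5a1 rose by 2.73 (SE 0.23), Krt20 by 2.73 (SE 0.23), Cdhr5 by 3.0 (SE 0.30), Fabp2 by 2.03 (SE 0.19) and Lgals4 by 1.23 (SE 0.23), with limma adjusted p between 6.84e-07 and 0.000379. The Lgals4 call was lost with all 44 libraries in 1 fit (limma adjusted p = 0.086). Fabp1 fell by 1.90 (SE 0.12, limma adjusted p = 6.65e-08), from 341 to 90.2 TPM, while Fabp2 went from 32.6 to 133 TPM. The 2 fatty acid binding genes moved in opposite directions in the same libraries. The median of all genes was -0.41 here and -0.59 in the comparison of YsEndo with exGut, and after median-ratio rescaling, which brought these medians to 0.012 and -0.066, the calls stood at 7 and 7 members, Vil1 being called as well in the first. Rescaling moved the share of called genes that were higher in YsEndo from 26.9% to 56.9% against exEndo2 and from 23.7% to 45.7% against exGut.

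Midgut and hindgut were then compared at E9.5. In cells of embryonic origin, 3 of 6 members tested were lower in hindgut than in midgut, where 13.9% of genes were called and 8.61% called lower. Krt20 was at 3.84 ± 0.33 against 27.6 ± 10.99 TPM (SD, n = 4 each), a difference of -2.48 (SE 0.32, limma adjusted p = 5.05e-05), and Fabp1 at 29.9 ± 16.1 against 181 ± 53.7 TPM, a difference of -2.68 (SE 0.34, limma adjusted p = 3.69e-05). Muc13, listed at 0 in hindgut and at 13.8 to 38.0 TPM in midgut, had a limma adjusted p of 5.16e-07. Vil1 was at 14.9 ± 7.44 against 14.7 ± 8.55 TPM and had a difference of 0.18, with a 95% interval of -0.84 to 1.20. Beside these, 6 of 7 epithelial genes were lower in emHindgut, which summed to 1742 to 2328 TPM against 4926 to 5754 in emMidgut. So were 7 of 9 visceral and yolk sac endoderm genes, at 42.9 to 130 against 1524 to 3269. Of the mesenchyme list 3 of 6 genes tested were higher, with sums of 30.5 to 47.9 against 11.6 to 15.0 TPM. The goblet list summed to 11.8 to 29.3 against 262 to 414, with 1 of 5 genes tested higher and 1 lower. Their part in the member values was not tested.

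In cells of extraembryonic origin, 4 of 8 members tested were lower in hindgut, where 11.3% of genes were called and 6.78% called lower. Krt20 was at 2.26 ± 1.79 against 36.1 ± 5.93 TPM (SD, n = 4 each), a difference of -3.65 (SE 0.40, limma adjusted p = 2.56e-05). Muc13 and Fabp2, both listed at 0 in all 4 exHindgut libraries, had limma adjusted p of 3.08e-06 and 0.00223. Fabp1 had a difference of -2.38 (SE 0.76, limma adjusted p = 0.0441), with overlapping ranges, and lost its call in 8 of 14 alternatives. Among them were the omission of exHindgut replicate 1 or 2 or of any exMidgut library, with limma adjusted p up to 0.119. With no filter on low values it was 0.185. Vil1, at -0.81, was called at -1.06 without exMidgut replicate 1. In these libraries 5 of 7 epithelial genes were lower in exHindgut, with sums of 2382 to 3252 TPM against 5210 to 6370. So were 8 of 9 visceral and yolk sac endoderm genes, at 133 to 711 against 7247 to 17251, and 3 of 4 goblet genes tested, at 12.9 to 23.4 against 595 to 2530.5. Their part in the member values was not tested.

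Other genes of the brush border and its regulators were compared over the same libraries. Of the structural brush border list, 5 of 7 tested in embryonic and 6 of 8 tested in extraembryonic cells were lower in hindgut and none was higher. Pls1, a microvillar actin bundler, differed by -2.09 (SE 0.20) and -2.55 (SE 0.25), with limma adjusted p of 2.64e-06 and 1.03e-05. Of the other brush border enzymes and transporters, 3 of 6 in embryonic and 4 of 7 in extraembryonic cells were lower in hindgut, Dpp4 by -3.21 (SE 0.28) and -3.35 (SE 0.44). Of the transcription factors, 7 of 13 were lower and 2 higher in embryonic cells, and 8 of 13 lower in extraembryonic cells. Gata4 was at 1.81 to 21.8 TPM in emMidgut and listed at 0 in all 4 emHindgut libraries, and Isx at 14.3 to 46.7 TPM in emMidgut and 8.49 to 34.7 in exMidgut was listed at 0 in all 8 hindgut libraries. The interaction of origin and region called 0.0965% of all genes and 0 of 8 members by limma, 2 of which (Fabp2 and Krt20) had an unadjusted p under 0.05, with limma adjusted p of 0.309 and 0.59.

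At E13.5 the colon of either origin held little Fabp2 beside the small intestine. Fabp2 was at 0.47 ± 0.81 TPM in emColon against 93.9 ± 45.6 in emSI (SD, n = 3 each), a difference of -6.02 (SE 0.72, limma adjusted p = 0.00645), and was the 1 member of 9 called, where 0.472% of genes were called and 0.249% called lower. In extraembryonic cells 3 of 8 were lower in colon, where 0.693% of genes were called and 0.473% called lower. These were Fabp2, at -6.12 (SE 1.00, limma adjusted p = 0.0235), Fabp1, at 22.3 ± 1.85 against 569 ± 405 TPM and -4.39 (SE 0.42, limma adjusted p = 0.000857), and Lgals4, at 76.0 ± 18.1 against 536 ± 161 TPM and -2.79 (SE 0.28, limma adjusted p = 0.00133). Krt20 and Muc13 had differences of -4.08 (SE 0.83, limma adjusted p = 0.0524) and -2.93 (SE 0.61, limma adjusted p = 0.0563) and were called after median-ratio rescaling and with FPKM in place of TPM, which made 5 members, and both were called without exColon replicate 3. Vil1 had differences of 0.85 (95% interval -0.28 to 1.97) and -0.54 (95% interval -1.60 to 0.52) in embryonic and extraembryonic cells.

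These E13.5 calls rest on 3 libraries a group. Fabp2 lost its call in embryonic cells without any 1 of the 3 emSI libraries, and in extraembryonic cells without any 1 exSI library or without exColon replicate 2 or 3, with adjusted p up to 0.262 over the alternatives. Without emColon replicate 2, the 1 emColon library with Fabp1 above 0, Fabp1 was called as lower in emColon, at -6.52. An exact two-sided permutation test of 3 against 3 libraries cannot go below p = 0.10, the value it gave for Fabp2 in both. Of the transcription factors, Gata4 was at 29.9 to 68.2 TPM in emSI and listed at 0 in all 3 emColon libraries.

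The step from E9.5 to E13.5 was compared in 4 lines. From midgut to small intestine, 5 of 9 members rose in embryonic cells, where 16.8% of genes were called and 3.25% called higher, and 7 of 8 tested in extraembryonic cells, where 15.4% were called and 3.97% called higher. Lgals4 went from 5.999 ± 6.93 (SD, n = 4) to 392 ± 98.2 TPM (SD, n = 3) in embryonic cells, a difference of 6.57 (SE 0.79, limma adjusted p = 0.00027), and from 2.85 ± 1.42 to 536 ± 161 TPM in extraembryonic cells, a difference of 7.17 (SE 0.38, limma adjusted p = 2.56e-06). Fabp2 rose by 5.99 (SE 0.58, limma adjusted p = 8.23e-05) and 5.20 (SE 0.39, limma adjusted p = 1.55e-05). Anpep rose by 2.30 and 2.90, Cdhr5 by 2.19 and 3.32 and Krt20 by 1.37 and 1.77, with limma adjusted p between 0.000474 and 0.015. The Krt20 call in embryonic cells was lost with no filter on low values (limma adjusted p = 0.0514) and with all 44 libraries in 1 fit (limma adjusted p = 0.073). Muc13 (1.93, SE 0.40, limma adjusted p = 0.00711) and Fabp1 were called in extraembryonic cells. Vil1 had differences of 0.69 (95% interval -0.63 to 2.00) and 1.03 (95% interval 0.02 to 2.04), neither called.

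From hindgut to colon, 5 of 7 members tested rose in embryonic cells, where 20.7% of genes were called and 4.16% called higher, and 3 of 7 in extraembryonic cells, where 10.3% were called and 3.63% called higher. Lgals4 went from 0.41 ± 0.59 (SD, n = 4) to 239 ± 151 TPM (SD, n = 3), a difference of 7.19 (SE 0.63, limma adjusted p = 0.000141), and from 1.45 ± 1.86 to 76.0 ± 18.1, a difference of 5.20 (SE 0.57, limma adjusted p = 0.000436). Muc13 went from 0 in all 8 hindgut libraries to 5.35 to 26.0 TPM in emColon and 5.999 to 55.0 in exColon, with limma adjusted p of 0.00139 and 0.00323. Vil1 rose by 1.35 (SE 0.40) and 1.30 (SE 0.33), with limma adjusted p of 0.0363 and 0.0308, and Anpep and Cdhr5 were called in embryonic cells only, at 1.76 (SE 0.54) and 2.30 (SE 0.74), a contrast between the origins that the interaction test did not call. In embryonic cells 1 to 3 of Vil1, Anpep and Cdhr5 lost their call without each of the 7 libraries in turn, and 2 to 4 members were then called. Without emColon replicate 2 the members called include new calls, Krt20 as higher, at 2.92, and Fabp1 as lower, at -4.77. Both were also called with all 44 libraries in 1 fit, at 2.06 and -3.17, and Krt20 after median-ratio rescaling, at 2.35. The call of Vil1 in extraembryonic cells was lost without exColon replicate 1 or any exHindgut library. Beside the embryonic values, 5 of 7 epithelial genes rose, from sums of 1742 to 2328 to sums of 4206 to 5315 TPM. Of the visceral and yolk sac endoderm genes 7 of 9 rose and 1 fell, from 42.9 to 130 to 2825 to 5234 TPM. In the same cells 5 of 5 mesenchyme genes tested fell, from 30.5 to 47.9 to 0.39 to 11.7 TPM. In extraembryonic cells 5 of 8 visceral and yolk sac endoderm genes tested rose, from 133 to 711 to 3401 to 9049 TPM, and 1 of 5 mesenchyme genes tested fell. Their part in the member values was not tested.

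**Figure D4:**
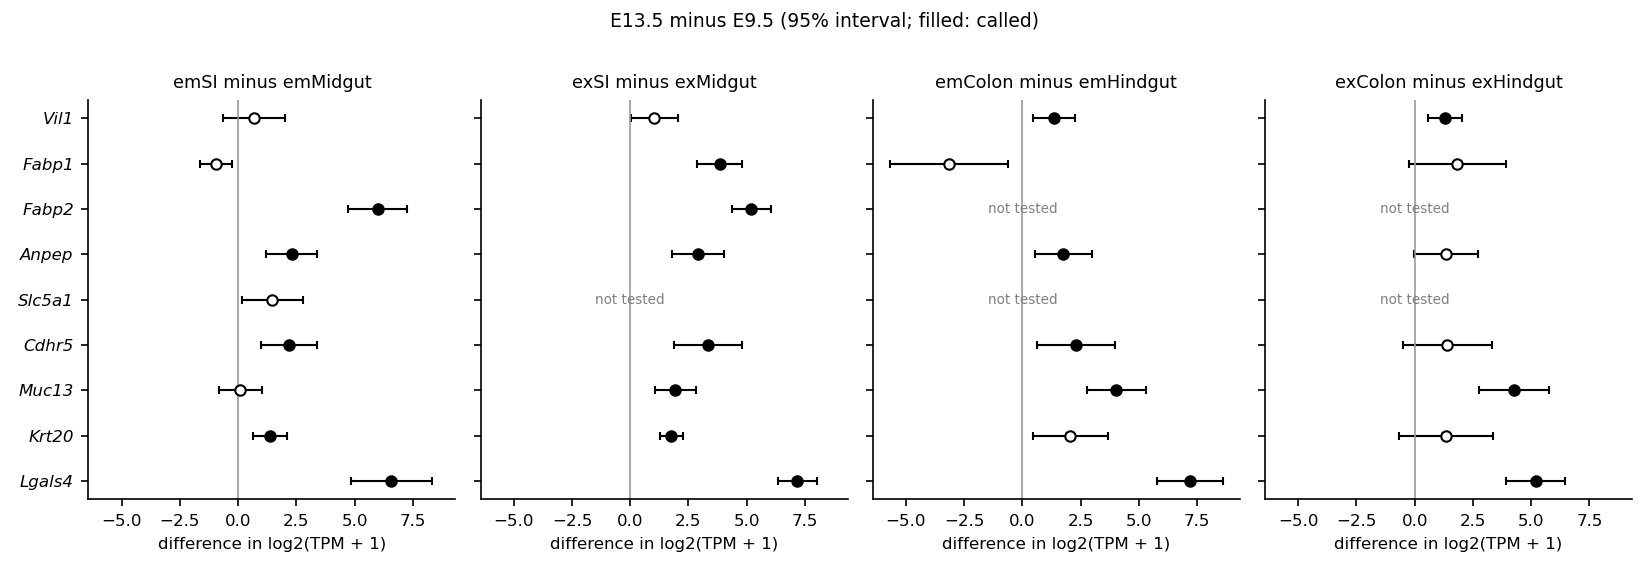
E13.5 minus E9.5 difference in log2(TPM + 1) with its 95% interval for each member, in the 4 lines of comparison, filled where called and marked where the gene did not pass the filter. Lgals4 is called in all 4 panels, Fabp1 is to the right of 0 in the extraembryonic panels and to the left in the embryonic ones, and the size of the Muc13 difference in the hindgut panels depends on the pseudocount, since Muc13 is listed at 0 in hindgut.

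In the stage comparisons the median of all genes fell, to between -0.21 and -0.54, and rescaling raised it by 0.11 to 0.31. The rescaled counts of members that rose were 5, 7, 6 and 3 in the order emSI, exSI, emColon and exColon, with none lower. The share of all called genes that were higher moved from 19.4% to 39.2%, from 25.8% to 41.9% and from 20.1% to 38.1% in the first 3 of these. The Trp53 genotype changes with stage in the extraembryonic lines but not in the embryonic ones. In the embryonic lines the sort changes, from GFP+ cells with low mCherry at E9.5 to GFP+ cells at E13.5. The paper describes the former as embryonic cells that hold extraembryonic remnants. The emSI libraries also carry the mesenchyme and enteroendocrine sums given above. The part of these in the member values was not tested. Over the same steps, 2 of 10 structural brush border genes tested rose and 4 fell from emMidgut to emSI. From exMidgut to exSI 2 of 11 rose and 3 fell. Of all genes tested, 1693 of 12531 and 1409 of 12348 were called lower in these 2 steps. From hindgut to colon 3 of 9 rose in embryonic and 4 of 8 in extraembryonic cells, and none fell. Myo7b, a myosin of the intermicrovillar links, rose by 2.50, 2.95, 2.83 and 2.11, whereas Espn, an actin bundler, fell by 2.44 and 1.82 from midgut to small intestine. Other brush border enzymes and transporters rose in 0 of 8 and 1 of 7 tested from midgut to small intestine. Among transcription factors, 6 of 15 tested rose and 2 fell from emMidgut to emSI, and 5 of 15 rose and 1 fell from exMidgut to exSI. From hindgut to colon 9 of 14 rose in embryonic and 4 of 11 in extraembryonic cells, and none fell. Hnf4g rose by 3.94 (SE 0.59, limma adjusted p = 0.001) and 4.39 (SE 0.55, limma adjusted p = 0.000414) from midgut to small intestine. Isx and Hnf4a rose from hindgut to colon, Hnf4a by 4.65 (SE 0.60) and 3.92 (SE 0.56). Of the genes of mature enterocytes, Sis, Lct, Treh, Slc10a2 and Fabp6 had group means of at most 0.33 TPM in every group, and Alpi had means of 1.02 TPM in emSI and 6.17 in exSI.

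The comparison of origins asked how far cells that entered the gut from the extraembryonic endoderm carry the same genes as their embryonic neighbours. In pooled E9.5 gut, 0 of 8 members tested were called by limma between exGut and emGut, where 2.35% of genes were called, and 1, Fabp1, had an unadjusted p under 0.05. In midgut 1 of 7 was called, where 2.58% were called and 1.35% called lower, and this was Fabp1, at 36.2 ± 18.9 TPM in exMidgut and 181 ± 53.7 in emMidgut (SD, n = 4 each), a difference of -2.37 (SE 0.30, limma adjusted p = 0.000353), lower in all 4 libraries. With all 44 libraries in 1 fit the Fabp1 call was lost (limma adjusted p = 0.0604). In hindgut 0 of 5 tested were called by limma, where 3.07% were called and 1 member had an unadjusted p under 0.05. This was Fabp1, which had a difference of -2.07 (SE 0.76, limma adjusted p = 0.145) and was called, at -2.76, without exHindgut replicate 3. With gut region as a covariate, the pooled Fabp1 difference of -2.22 had an SE of 0.46 in place of 0.77 and a limma adjusted p of 0.00288 in place of 0.13, and the interaction of origin and region for Fabp1 was 0.30 (95% interval -1.65 to 2.25).

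Fabp2 had the opposite sign in the midgut, at 2.00 (SE 0.55, limma adjusted p = 0.0649), with all 4 exMidgut libraries above all 4 emMidgut libraries, and was called without emMidgut replicate 2, the 1 library of that group above 0, and with all 44 libraries in 1 fit (limma adjusted p = 0.0329). The remaining midgut members had differences between -0.16 and 0.70, the widest 95% interval being -1.76 to 1.45 for Lgals4. Beside these, the summed level of the visceral and yolk sac endoderm list (Afp, Ttr, Apoa1 and 6 more) was 7247 to 17251 TPM in exMidgut and 1524 to 3269 in emMidgut, with 8 of its 9 genes higher in exMidgut, and in YsEndo it was 62431 to 72330. The goblet list was at 595 to 2530.5 TPM in exMidgut and 262 to 414 in emMidgut, with 2 of 5 genes tested called higher and 1 lower. The colonocyte list was at 407 to 1137 and 135 to 323, with 1 of 2 genes tested called higher. In both midgut groups 4 of its 6 genes had a mean of 0. Its sum was 2.76 to 13.9 TPM in emColon and 0.083 to 5.95 in exColon, but 2539 to 2950 in YsEndo, so it does not measure colonocytes here. The neural list was at 0.034 to 4.78 and 14.9 to 61.4, with 1 of 2 called lower. The hepatic and pancreatic list was at 222 to 408 and 185 to 193, with 1 of 4 called higher. Their part in the Fabp1 and Fabp2 values was not tested. Cdx2 was also lower in exMidgut, by -1.19 (SE 0.15, limma adjusted p = 0.000241).

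At E13.5 the direction for Fabp1 was the reverse. In small intestine, 2 of 9 members were higher in exSI, where 0.738% of genes were called and 0.510% called higher. Fabp1 was at 569 ± 405 against 98.4 ± 50.1 TPM (SD, n = 3 each), a difference of 2.41 (SE 0.44, limma adjusted p = 0.0309), and Muc13 at 146 ± 19.5 against 30.6 ± 16.4 TPM, a difference of 2.34 (SE 0.37, limma adjusted p = 0.0139). Of those that did not pass, Cdhr5 had a difference of 2.03 (95% interval 0.71 to 3.36), Fabp2 of 1.21 (0.45 to 1.97), Anpep of 1.16 (0.26 to 2.06), Vil1 of 1.05 (-0.11 to 2.21), Krt20 of 0.85 (0.28 to 1.41), Lgals4 of 0.44 (-0.09 to 0.97) and Slc5a1 of -1.75 (-3.57 to 0.08). The median of the 9 was 1.16 against -0.004 for all genes tested. Rbp2, an intracellular retinol carrier of enterocytes, was higher by 2.67 (SE 0.42, limma adjusted p = 0.0139) and Baiap2l1 by 2.55 (SE 0.50, limma adjusted p = 0.0404), each the 1 call of its list.

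Without emSI replicate 1, exSI replicate 1 or exSI replicate 2 no member was called, and without emSI replicate 3 only Muc13 was, with adjusted p up to 0.358 for Fabp1 and 0.185 for Muc13 over the alternatives while the differences stayed between 1.87 and 2.79. The exact permutation p was 0.10 for both, the smallest that 3 against 3 allows. The mesenchyme and enteroendocrine sums given above were higher in emSI than in exSI in every library. In exSI 0 of 2 mesenchyme genes tested and 1 of 3 enteroendocrine genes tested were called lower. The visceral and yolk sac endoderm list summed to 1764 to 2357 TPM in emSI and 4928 to 8148 in exSI, with 5 of 9 genes called higher in exSI. The goblet list summed to 174 to 345 and 834 to 1957, with 1 of 4 tested called higher. Their part in the member values was not tested.

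In colon, 0 of 7 members tested were called by limma between exColon and emColon, where 0.269% of genes were called and the median of all genes was 0.23, and 2 members, Fabp1 and Lgals4, had an unadjusted p under 0.05. Fabp1 had a difference of 2.93 (95% interval 0.29 to 5.58, limma adjusted p = 0.459), 2 of 3 emColon libraries being listed at 0, and Lgals4 of -1.36 (95% interval -2.51 to -0.22, limma adjusted p = 0.425). Without emColon replicate 3, the lowest emColon library for Lgals4 at 69.7 TPM, Lgals4 was called as lower in exColon, at -2.09. The interaction of origin and organ called 0.0160% of genes and 0 of 9 members by limma, 3 of which (Cdhr5, Muc13 and Lgals4) had an unadjusted p under 0.05, the largest in size being Cdhr5 at -3.20 (95% interval -6.15 to -0.24, limma adjusted p = 0.561).

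**Figure D5:**
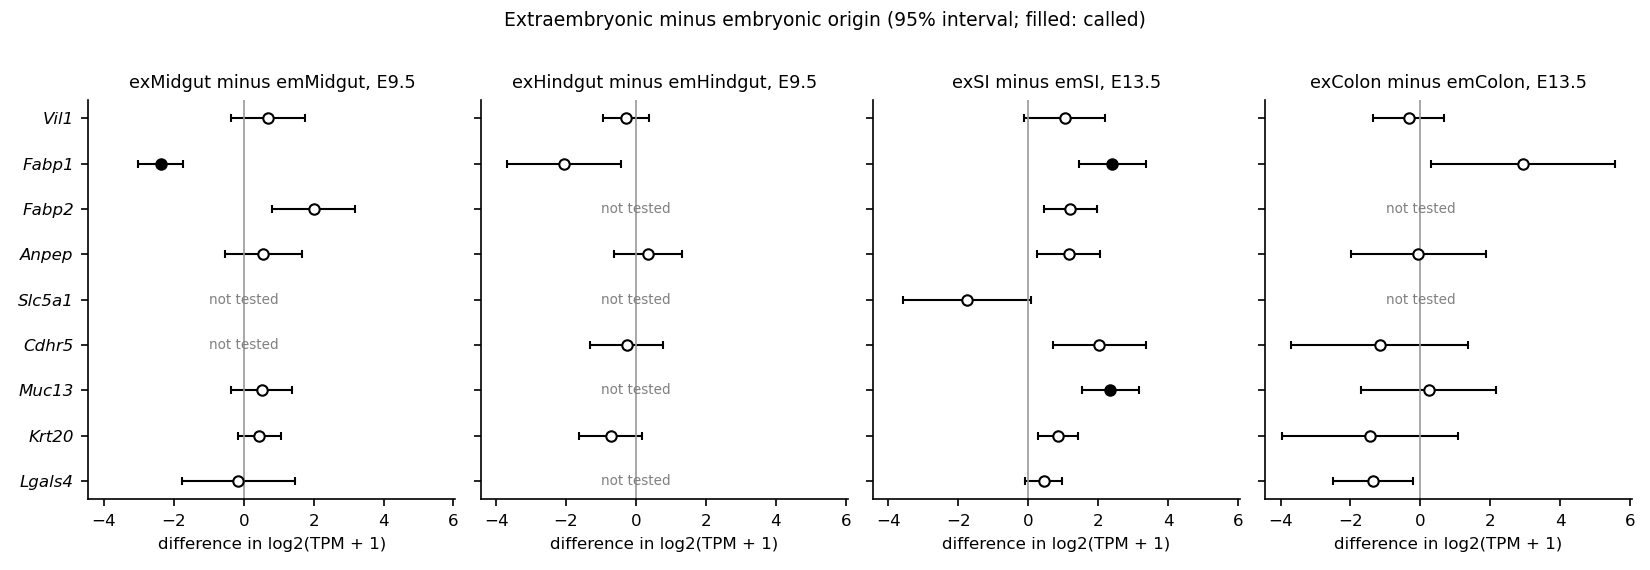
Extraembryonic minus embryonic difference in log2(TPM + 1) with its 95% interval for each member in midgut, hindgut, small intestine and colon, filled where called and marked where the gene did not pass the filter. Fabp1 is at -2.37 and -2.07 in the E9.5 panels and at 2.41 and 2.93 in the E13.5 panels.

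Whether the step from E9.5 to E13.5 differed by origin was tested directly. From midgut to small intestine Fabp1 had an interaction of 4.78 (SE 0.60, 95% interval 3.51 to 6.05, limma adjusted p = 0.00252), where 0.118% of genes were called and 0.0517% called in this direction, and no other member of the 9 passed. In embryonic cells it went from 181 to 98.4 TPM, a difference of -0.94 (SE 0.31, limma adjusted p = 0.0503) that was called without emSI replicate 2 or emMidgut replicate 1, and in extraembryonic cells from 36.2 to 569 TPM, a difference of 3.84 (SE 0.44, limma adjusted p = 0.000256). The interaction stayed between 4.24 and 5.16 and was called in all 20 alternatives, including the omission of each of the 14 libraries. From hindgut to colon the Fabp1 interaction was 5.00 (SE 1.58, limma adjusted p = 0.154), where 0.768% of genes were called, with 0 of 7 members called by limma and 2 (Fabp1 and Lgals4) at an unadjusted p under 0.05. It was called at 6.61 without emColon replicate 2. The other midgut to small intestine interactions ranged from -0.94 for Slc5a1 to 1.84 for Muc13 (95% interval 0.51 to 3.17, limma adjusted p = 0.343).

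The genes with the most similar pattern over the 44 libraries were found by Pearson's r of log2(TPM + 1) over 14689 protein-coding genes, as a description of libraries that share groups and tissue. For Muc13 they were Lgals2 (0.94), Apoa1 (0.92) and Hnf4a (0.915). Hnf4a had group means of 49.0 to 57.4 TPM in the visceral and yolk sac endoderm, 9.57 in emMidgut, 15.3 in exMidgut and 16.7 to 43.2 at E13.5, and did not exceed 0.31 TPM in any hindgut library. For Lgals4 the nearest genes were Myo7b (0.91), Cdh17 (0.91) and Tff1 (0.89), and those near Fabp2 included A1cf (0.86) and S100g (0.83). Vil1 was nearest to Cotl1 (0.92), Cd63 (0.91) and Mpc2 (0.91), Krt20 to Gde1 (0.90), Ociad2 (0.89) and Enpp1 (0.89), and Anpep to Ugt2b35 (0.88), Sult1d1 (0.855) and Psme2b (0.84). Cdhr5, with Serpinb1a, Clrn3 and Atp5o, Slc5a1, with Cela1, Guca2b and Atp5o, and Fabp1, with Tgm2, Lpar3 and Fbln1, had no gene above 0.80, other than Serpinb1a at 0.802.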

How the data were processed

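The authors trimmed reads of 44 low-input poly(A) RNA libraries, made from dissected tissue at E6.5 and from small numbers of sorted cells later, with cutadapt 4.1, aligned them with STAR 2.7.9a to mm10 carrying the GFP and mCherry sequences, and quantified annotated genes with StringTie 2.0.6. The deposited TPM values gave all levels and tests, the deposited FPKM values an alternative, and the deposited coverage values (mean read depth per base) the depth, since total reads are not given by these files. TPM was summed per gene identifier. Strand was not kept by the kit, so reads of overlapping genes cannot be told apart.

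Tests used limma 3.58.1 in R 4.3.3 on log2(TPM + 1) with a mean-variance trend and Benjamini-Hochberg adjustment, over protein-coding genes off the Y chromosome above 1 TPM in at least 4 libraries, or 3 where a group has 3. Only the groups compared entered a fit, and interactions had no size threshold. The method was tested on simulated data, where changes of 1.5 and 3 on the log2 scale were recovered in 70% and 96% of genes for exMidgut against emMidgut (12607 genes) and in 27% and 65.7% for exSI against emSI (11860 genes). The changes were placed only in genes with a mean log2(TPM + 1) above 3, so these shares do not cover members below that level. All 9 members are named, and of each other list at most the 2 largest rises and 2 largest falls called in a comparison. The members and lists were chosen with earlier results of these data known. Same-numbered replicates deviated together at r over 0.1 in every pair only for exEndo2 and exEndo1 (r from 0.167 to 0.402 over 4 pairs, a check on the values). The block kept the count of 1 call there. For exSI and emSI r was 0.050 to 0.072 over 3 pairs, and the check cannot exclude shared embryos. Some genes are not reported here.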

Additional observations from a re-analysis of the deposited data

Results flagged for a closer look

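Of 46 sets of 4 libraries tested over the 9 genes, 5 held a library set apart from the other 3 by Dixon's criterion, which chance gives in about 1 of 20. Fabp1 was at 80.6 TPM in exEndo1 replicate 3, with the next library at 18.6. Muc13 was at 116 TPM in exEndo1 replicate 1, with the next at 72.7, and at 41.8 TPM in exEndo2 replicate 4, with the next above it at 55.8. Anpep was at 1.06 TPM in YsEndo replicate 3, with the next above it at 1.78. Lgals4 was at 4.21 TPM in exHindgut replicate 2, with the next at 0.77.

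The effect of stage on Fabp1 from midgut to small intestine differed between the origins by 4.78 on the log2 scale, in a test of the interaction itself. Origin changes with strain throughout, and with Trp53 genotype at E13.5, so these cannot be told apart. Sex can differ with origin, and the sort of embryonic cells changes between E9.5 and E13.5. The part of either in the Fabp1 values was not tested.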

How the results depend on the processing

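Of 54 member differences called, re-estimated 758 times under the alternatives, 689 estimates stayed called, 69 lost the call and 0 changed sign, and of 1637 estimates of uncalled differences 44 became called and 58 changed sign. Counts of members called moved by over 1.5 times as follows; the cause was not tested. With all 44 libraries in 1 fit, the count went from 0 to 1 for exGut against emGut, exColon against emColon and the interactions of organ and of hindgut to colon, from 2 to 1 for exSI against emSI, from 1 to 3 for emColon against emSI and from 3 to 7 for exColon against exSI. With gut region as a covariate, exGut against emGut went from 0 to 1. With a pseudocount of 0.1, exSI against emSI went to 1 and emColon against emHindgut from 5 to 3. With no filter on low values the counts were 0 for exSI against emSI, 0 for emColon against emSI, 0 for exColon against exSI and 2 for emColon against emHindgut. For exColon against exSI the count was 5 with median-ratio rescaling, 5 with FPKM and 5 with the replicate number as a block. Whether these numbers pair samples outside the exEndo libraries is not known. The block changed no other count of members. Counts hide lost calls: for exMidgut against emMidgut the count stayed at 1 with all 44 libraries in 1 fit, with Fabp2 called in place of Fabp1.

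Leaving out 1 library at a time gave 0 to 0 members called for exGut against emGut, 1 to 2 for exMidgut, 0 to 1 for exHindgut, 0 to 2 for exSI and 0 to 1 for exColon against their embryonic counterparts. It gave 3 to 4 for emHindgut against emMidgut, 3 to 4 for exHindgut against exMidgut, 0 to 2 for emColon against emSI, 2 to 4 for exColon against exSI, 5 to 6 and 7 to 7 for midgut to small intestine, and 2 to 4 and 2 to 3 for hindgut to colon, in embryonic and extraembryonic cells. It gave 6 to 7 for YsEndo against exGut, 6 to 6 against exEndo2, 5 to 6 for exEndo1 against Epi, 1 to 2 for exEndo2 against exEndo1, and for the interactions 0 to 0, 0 to 0, 1 to 1 and 0 to 1. E13.5 groups hold 3 libraries each, and total reads are unknown.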
